A study of Mus musculus with 20 samples.

Results

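Growth hormone reaches the liver of male mice in pulses, and 8 hepatocyte genes whose expression in male liver depends on that pulsatile pattern were followed here across the 5 treatment groups of the study. They are Cyp4a12a, Cyp4a12b, Elovl3, Keg1, Hsd3b5, Mup20, Mup21 and Slco1a1, chosen by gene symbol among the 13319 genes with a count, and all 8 were listed and tested. The livers came from male mice that ate a western diet and were dosed each day over 16 days. The groups received the thyroid hormone triiodothyronine (T3), glucagon together with T3 (the combination), 1 molecule that joins glucagon and T3 (the hybrid), glucagon alone, or the control treatment, with 4 mice in each. The hybrid group carries the code Cp in the labels and was identified by elimination, and no strain, age, dose or control vehicle is given in the sources used here. All mice were male and no growth hormone values are used here, so the data show neither the sex bias nor the pulse pattern itself.

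Male mice secrete growth hormone in separated bursts, and females secrete it almost without pause. Each burst activates the transcription factor STAT5b through the growth hormone receptor, and this intermittent signal keeps a set of genes on in male hepatocytes. In female liver the repressor CUX2, which the continuous pattern induces, holds many of the same genes down. Thyroid hormone and glucagon act on hepatocytes through other receptors, a nuclear receptor for T3 and a cyclic AMP coupled membrane receptor for glucagon.

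RNA from each liver gave 1 sequencing library, and the values are raw read counts per gene symbol. Totals ran from 6091917 to 23195658 counts, and the T3 libraries were the shallowest (6091917 to 7996156, against at least 8791923 in every other library). The labels place all T3 libraries in sequencing lane 5 and replicates 1 to 4 of the other groups in lanes 1 to 4, so a T3 effect and a lane 5 effect cannot be told apart in any comparison with the T3 group. The 9 hepatocyte markers listed (of 10) summed to between 84500 and 270700 CPM (counts scaled to a common library size). Those sums were 91930 to 136500 CPM in the T3 group, 102800 to 155900 in the combination, 84500 to 121400 in the hybrid, 166100 to 228900 with glucagon and 133000 to 270700 in control. The part of that difference in the results was not tested, and in whole tissue fewer hepatocytes and less RNA per hepatocyte cannot be told apart. The variation between mice, as edgeR's biological coefficient of variation, was 19.25% in the T3 group, 18.9% in the combination, 22.64% in the hybrid, 26.05% with glucagon and 43.16% in control. Control replicate 2 stood apart, with 12 interferon response genes at 2388 summed CPM and 10 skeletal muscle genes at 849.7 summed CPM. Glucagon replicate 3 had 3258 summed CPM of the muscle genes. The changes of the 8 genes were also computed without both libraries.

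The genes lie on 4 mouse chromosomes (GRCm38, GENCODE M21). Cyp4a12a (chr4:115299046-115332815, plus strand) and Cyp4a12b (chr4:115411624-115439034, plus strand) are neighbours 78808 bases apart, and their longest coding transcripts share 98.3% of aligned bases. Mup20 (chr4:62050234-62054158, minus strand) and Mup21 (chr4:62147932-62150863, minus strand) lie in the Mup gene cluster, 93773 bases apart. Elovl3 (chr19:46131897-46135694, plus strand), Keg1 (chr19:12695786-12719902, plus strand), Hsd3b5 (chr3:98618634-98630252, minus strand) and Slco1a1 (chr6:141907282-141946962, minus strand) lie on other chromosomes. Reads of near-identical copies may be split or lost in counting, so the values of the Cyp4a12 pair and of the Mup genes are uncertain to that extent. Mup20 shares 88.2% to 91.6% of aligned transcript bases with each of 20 other Mup genes, and Mup21 shares 96.1% with Mup3.

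The RefSeq promoter table (GRCm38.p6) held 4 of the 8 genes, Keg1, Hsd3b5, Mup21 and Slco1a1, and the 250 bases before the start were searched on both strands for 4 motifs. These were the STAT5 consensus TTCNNNGAA, the core ATTGAT that ONECUT1 and CUX2 can bind, the nuclear receptor half-site AGGTCA, and the direct repeat of that half-site with 4 bases between, which thyroid hormone receptors can bind. The window listed for Hsd3b5 (chr3:98645535-98645784) lies outside the GENCODE gene placed above, so it is not shown and nothing is drawn from it. The other 3 windows are shown with their matches in capitals, each written along the strand of its gene.
Keg1 (chr19:12695540-12695789, plus strand): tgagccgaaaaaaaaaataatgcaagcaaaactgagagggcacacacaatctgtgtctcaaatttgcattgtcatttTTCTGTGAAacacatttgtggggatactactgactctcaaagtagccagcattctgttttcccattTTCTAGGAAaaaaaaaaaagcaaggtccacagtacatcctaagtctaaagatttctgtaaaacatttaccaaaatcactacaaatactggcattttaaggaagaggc
Mup21 (chr4:62150842-62151091, minus strand): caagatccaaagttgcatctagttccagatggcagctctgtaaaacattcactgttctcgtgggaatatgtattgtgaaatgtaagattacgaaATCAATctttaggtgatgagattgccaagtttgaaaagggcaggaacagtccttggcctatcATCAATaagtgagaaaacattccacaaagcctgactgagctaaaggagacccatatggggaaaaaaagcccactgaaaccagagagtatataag
Slco1a1 (chr6:141946963-141947212, minus strand): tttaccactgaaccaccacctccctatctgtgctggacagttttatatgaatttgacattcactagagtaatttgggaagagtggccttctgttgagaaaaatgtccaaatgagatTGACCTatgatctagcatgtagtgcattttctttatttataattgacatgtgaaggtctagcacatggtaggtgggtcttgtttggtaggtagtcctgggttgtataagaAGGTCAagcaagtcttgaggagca
The Keg1 window held 2 matches to TTCNNNGAA, at bases -173 to -165 and -107 to -99 from the start, and 7.02% of all 32851 RefSeq promoter windows of this length held at least 1. The Mup21 window held 2 matches to ATTGAT, read on the opposite strand (6.72% of windows held 1 or more). The Slco1a1 window held 2 matches to AGGTCA, 1 on each strand, separated by more than the direct repeat allows (14.02% of windows held AGGTCA and 0.02% the repeat). A match is a string of letters and not a measured binding site.

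Most of the 8 genes were low wherever T3 was given and lay closer to control with glucagon alone. Against control, 5 of the 8 fell in the T3 group, 7 in the combination and 7 in the hybrid, by edgeR's quasi-likelihood test with Benjamini-Hochberg adjustment over 12907 genes (adjusted p under 0.05, termed called below). The shares of all tested genes called lower were 10.6% with T3, 10.9% with the combination and 13.2% with the hybrid. With glucagon 2 of the 8 fell (11.9% of all genes did) and 1, Elovl3, rose (9.23% of all genes did). The median log2 change of the 8 was -2.75 with T3, -3.81 with the combination, -3.99 with the hybrid and -0.66 with glucagon, against medians over all tested genes that lay between -0.094 and -0.045. The libraries did not overlap with control, on the lower side, for 4 of the 8 genes with T3 (7.7% of all tested genes), 5 with the combination (7.86%) and 5 with the hybrid (8.69%), and on the higher side for 1 with glucagon (8.7%). The 4 comparisons share the control libraries, so their changes are given side by side and not as separate evidence. Without control replicate 2 and glucagon replicate 3, the number of the 8 genes called was 6 with T3, 7 with the combination, 8 with the hybrid and 2 with glucagon.

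**Figure D1:**
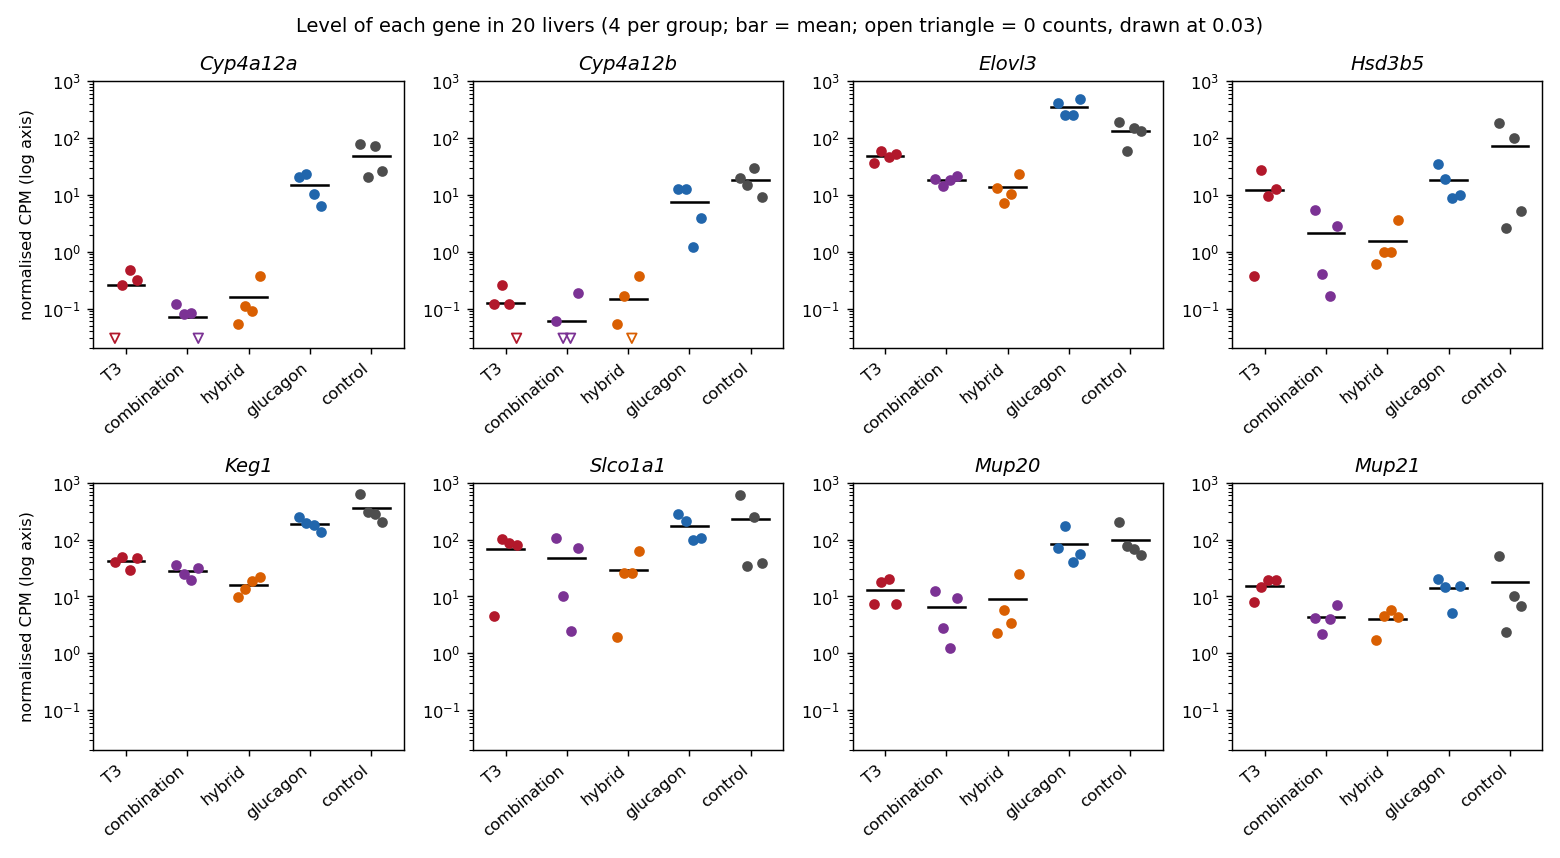
Normalised CPM on a log axis for each of the 8 genes in 20 livers, by group, with 1 point a library, a bar at the group mean and an open triangle where a library held 0 counts. Cyp4a12a lies at or under 0.472 CPM in all 12 libraries of the T3, combination and hybrid groups and at or above 6.34 CPM in all glucagon and control libraries, while Mup21 and Slco1a1 overlap between groups.

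The Cyp4a12 pair encodes cytochrome P450 enzymes that hydroxylate fatty acids, including arachidonic acid, and showed the deepest loss. Normalised Cyp4a12a levels were 0, 0.262, 0.472 and 0.320 CPM in T3 livers, 0.118, 0.0798, 0.0822 and 0 in combination livers, 0.0544, 0.110, 0.0902 and 0.373 in hybrid livers, 20.7, 22.9, 10.2 and 6.34 in glucagon livers, and 77.3, 20.9, 70.9 and 26.3 in control livers. No library of the 3 groups given T3 came near any glucagon or control library. These low values rest on 8 reads in the T3 group, 4 in the combination and 8 in the hybrid, against 2949 in control. Summed counts per effective library size came to 0.559% of control with T3 (95% interval 0.241% to 1.10%), 0.163% with the combination (0.0443% to 0.417%) and 0.292% with the hybrid (0.126% to 0.576%), where the exact Poisson intervals cover counting error only. The fitted log2 changes were -7.49 ± 0.87 with T3 (SE, adjusted p = 4.48e-07), -9.16 ± 1.16 with the combination (adjusted p = 1.12e-07) and -8.36 ± 0.86 with the hybrid (adjusted p = 7.47e-08). With glucagon Cyp4a12a fell by 1.69 ± 0.41 on the log2 scale (adjusted p = 0.00678), although the glucagon and control libraries overlapped. This call was lost when only those 2 groups were fitted (adjusted p = 0.0709).

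Cyp4a12b followed the same course at 0.123, 0.262, 0.118 and 0 CPM in T3 livers, 0.0592, 0, 0 and 0.186 in combination livers, 0.0544, 0.164, 0 and 0.373 in hybrid livers, 12.5, 12.6, 1.22 and 3.93 in glucagon livers, and 20.1, 14.97, 29.8 and 8.98 in control livers. Again every library of the T3, combination and hybrid groups lay below every glucagon and control library. The log2 change against control was -7.04 ± 1.23 with T3, -8.10 ± 1.39 with the combination and -6.96 ± 0.94 with the hybrid (SE, edgeR adjusted p at most 1.82e-05). In counts, the combination held 3 reads against 1108 in control, which is 0.325% of control (0.0669% to 0.952%). Glucagon livers had a log2 change of -1.27 ± 0.51 that was not called (adjusted p = 0.0890).

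Elovl3, an elongase that lengthens very long chain fatty acids, was the gene on which T3 and glucagon moved in opposite directions. Its level was 36.4, 58.5, 46.6 and 52.9 CPM in T3 livers, 18.9, 14.3, 18.1 and 21.3 in combination livers, 13.1, 7.28, 10.2 and 23.2 in hybrid livers, 406, 253, 248 and 486 in glucagon livers, and 194, 57.7, 148 and 133 in control livers. All glucagon libraries lay above all control libraries, all combination and hybrid libraries lay below them, and 1 T3 library passed the lowest control library. Elovl3 fell by 1.45 ± 0.33 with T3 (SE, adjusted p = 0.00676), by 2.87 ± 0.34 with the combination (adjusted p = 1.25e-05) and by 3.31 ± 0.34 with the hybrid (adjusted p = 2.68e-06) on the log2 scale. With glucagon alone Elovl3 rose by 1.39 ± 0.33 (adjusted p = 0.00556), and it was higher in 4 of 4 lanes.

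Hsd3b5, a member of the 3-beta-hydroxysteroid dehydrogenase family that in mouse works as a 3-ketosteroid reductase, varied widely within groups. Its level was 0.368, 26.7, 9.44 and 12.6 CPM in T3 livers, 5.33, 0.399, 0.164 and 2.78 in combination livers, 0.598, 0.986, 0.992 and 3.55 in hybrid livers, 34.3, 19.3, 8.76 and 9.96 in glucagon livers, and 186, 2.61, 100 and 5.20 in control livers. Control replicates 2 and 4 sat within the range of the T3 and combination groups and below every glucagon library. The highest control library was 71.5-fold above the lowest. Hsd3b5 fell with the combination (log2 change -5.02 ± 1.10, SE, adjusted p = 0.00611) and with the hybrid (-5.67 ± 1.16, adjusted p = 0.00280). The T3 value, -2.58 ± 1.01, was not called (adjusted p = 0.0956), and it was called without control replicate 2 (-2.98, adjusted p = 0.0311) or without control replicate 4 (-2.98, adjusted p = 0.0474). The glucagon value, -2.02 ± 0.99, was not called (adjusted p = 0.168). Without control replicate 1 the log2 change of Hsd3b5 was -1.52 with T3, -3.97 with the combination and -4.61 with the hybrid, the last 2 still called.

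Keg1 encodes a protein of the glycine N-acyltransferase family and had the smallest SE of the 8 genes in each comparison with control. Its level was 39.98, 49.7, 28.9 and 46.7 CPM in T3 livers, 35.2, 24.9, 19.3 and 31.2 in combination livers, 9.90, 13.5, 18.6 and 22.4 in hybrid livers, 255, 194, 183 and 134 in glucagon livers, and 628, 301, 286 and 200 in control livers. Every library of the 3 groups given T3 lay below every glucagon and control library. Keg1, whose promoter window holds the 2 STAT5 consensus matches shown above, fell by 3.10 ± 0.31 with T3, by 3.68 ± 0.31 with the combination and by 4.47 ± 0.31 with the hybrid on the log2 scale (SE, edgeR adjusted p at most 5.31e-06). It also fell by 0.89 ± 0.31 with glucagon (adjusted p = 0.0461), a call that was lost with the replicate number, which marks the lane in 4 groups, as a block (the replicate block, adjusted p = 0.0628). It was also lost with only the glucagon and control groups in the fit (adjusted p = 0.158). Leaving out any of 13 of the 20 libraries lost it too (adjusted p 0.0516 to 0.258), and without control replicate 1 the value was -0.44.

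Slco1a1 encodes a carrier on the blood side of hepatocytes that takes up bile acids, steroid conjugates and other organic anions. Its level was 4.54, 104, 86.7 and 82.0 CPM in T3 livers, 105, 10.3, 2.47 and 71.6 in combination livers, 1.96, 25.8, 25.4 and 62.0 in hybrid livers, 279, 213, 98.4 and 108 in glucagon livers, and 614, 33.8, 253 and 38.7 in control livers. The 2 lower controls, at 33.8 and 38.7 CPM, lay within the T3 range, and the groups overlapped in all 4 comparisons with control. The log2 change was -1.76 ± 1.02 with T3 (SE, adjusted p = 0.253), -2.31 ± 1.02 with the combination (adjusted p = 0.132), -3.04 ± 1.02 with the hybrid (adjusted p = 0.05002) and -0.43 ± 1.01 with glucagon (adjusted p = 0.798), and none was called. The hybrid value missed the threshold narrowly and was called with RLE size factors (adjusted p = 0.0486), by DESeq2 (adjusted p = 0.0231) and without any 1 of control replicates 2 and 4, T3 replicate 1, combination replicate 3 and hybrid replicate 4 (adjusted p 0.0244 to 0.0471). Without control replicate 1, the highest control library, the hybrid value was -1.91 (adjusted p = 0.207), the combination value -1.19 (adjusted p = 0.470) and the T3 value -0.63 (adjusted p = 0.748).

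Mup20, also named darcin, is a major urinary protein that males pass into urine as a pheromone. Its level was 7.24, 18.2, 19.9 and 7.35 CPM in T3 livers, 12.3, 2.79, 1.23 and 9.56 in combination livers, 2.28, 5.75, 3.43 and 24.5 in hybrid livers, 70.1, 173, 40.2 and 55.3 in glucagon livers, and 203, 76.2, 67.2 and 54.5 in control livers. The 12 libraries given T3 all lay below the other 8. Mup20 fell by 2.92 ± 0.70 with T3 (SE, adjusted p = 0.0107), by 3.94 ± 0.70 with the combination (adjusted p = 0.00117) and by 3.51 ± 0.69 with the hybrid (adjusted p = 0.00205) on the log2 scale. The glucagon value was -0.25 ± 0.67 (95% interval -1.64 to 1.15, adjusted p = 0.825). Without control replicate 1 the log2 change of Mup20 was -2.31 with T3, -3.34 with the combination and -2.91 with the hybrid, each still called.

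Mup21, a further member of the urinary protein family, behaved least like the others. Its level was 7.97, 14.4, 19.5 and 19.2 CPM in T3 livers, 4.26, 2.15, 3.94 and 7.15 in combination livers, 1.69, 4.54, 5.77 and 4.39 in hybrid livers, 20.2, 14.7, 5.10 and 15.5 in glucagon livers, and 52.0, 2.37, 10.2 and 6.94 in control livers. The 3 lower control libraries lay within or near the range of the combination and hybrid libraries, and control replicate 1 stood far above them. Mup21 was called lower with the combination (log2 change -2.04 ± 0.66, SE, adjusted p = 0.0366) and with the hybrid (-2.15 ± 0.66, adjusted p = 0.0246). Both calls rest on control replicate 1, since without it the values were -0.55 (adjusted p = 0.497) with the combination and -0.65 (adjusted p = 0.392) with the hybrid. The combination call was also lost without combination replicate 1, 2 or 3 (adjusted p 0.0821 to 0.102), and the hybrid call without hybrid replicate 1, 2 or 4 (adjusted p 0.0516 to 0.0743). With the replicate block the combination gave -1.79 (adjusted p = 0.0904) and the hybrid -1.74 (adjusted p = 0.0961). Both calls were also lost with only the groups compared in the fit (adjusted p = 0.142 with the combination and 0.119 with the hybrid). The T3 value was -0.24 ± 0.64 (adjusted p = 0.825) and the glucagon value -0.37 ± 0.63 (adjusted p = 0.711), and the T3 value was 1.26 without control replicate 1. Control replicate 1 was the highest control library for 7 of the 8 genes, and control replicate 2 was the lowest for 5.

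**Figure D2:**
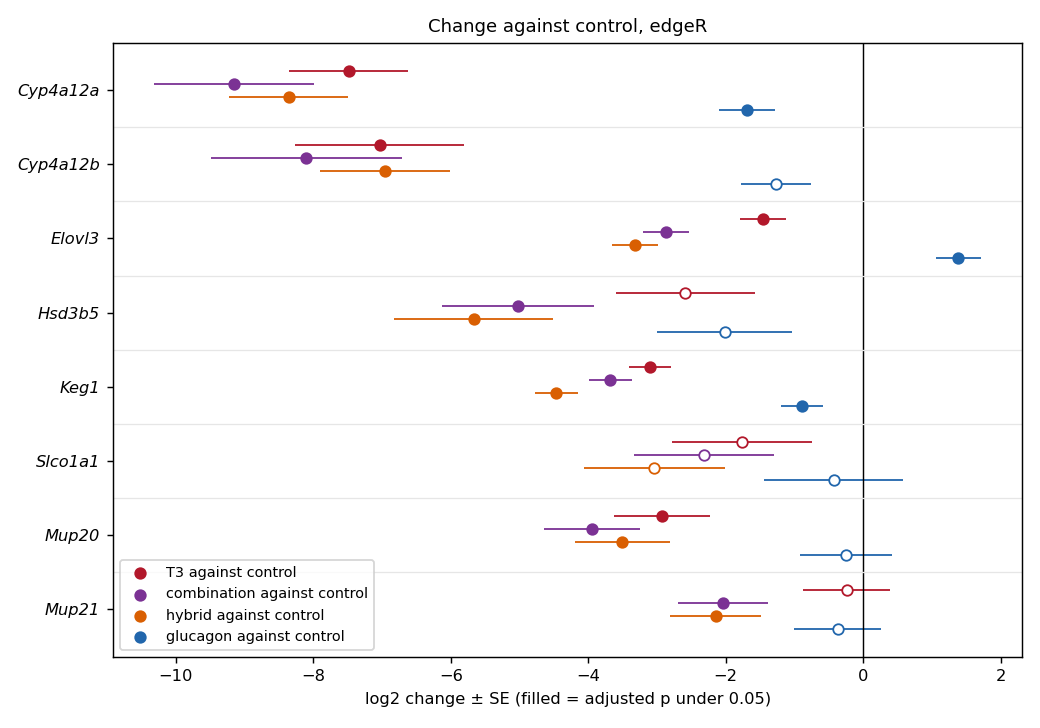
Log2 change against control for the 8 genes and 4 treatments, with SE bars from the edgeR fit of 20 libraries; filled points passed an adjusted p of 0.05. The T3, combination and hybrid points lie left of 0 for every gene, Mup21 with T3 lies nearest at -0.24, and the glucagon point for Elovl3 lies at 1.39.

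Across the 12 libraries given T3 and the 8 that were not, 4 of the genes did not overlap, Cyp4a12a, Cyp4a12b, Keg1 and Mup20, each lower in all 12 (1.49% of all tested genes did the same). Elovl3 missed this by 1 pair, its highest T3 library at 58.5 CPM lying just above control replicate 2 at 57.7 CPM. Hsd3b5, Mup21 and Slco1a1 each had control replicate 2 as the lowest of the 8, at 2.61, 2.37 and 33.8 CPM, below the highest library given T3.

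In order of mean level, control was first and glucagon second for Cyp4a12a, Cyp4a12b, Keg1, Mup20, Hsd3b5 and Slco1a1, and these neighbours overlapped in each case. For Elovl3 glucagon was first at 348 ± 117 CPM (SD, n = 4), followed by control at 133 ± 56.7 CPM and T3 at 48.6 ± 9.45 CPM. The combination averaged 18.2 ± 2.93 CPM of Elovl3 and overlapped with the hybrid at 13.4 ± 6.94 CPM. Keg1 averaged 41.3 ± 9.21 CPM with T3, 27.6 ± 6.98 with the combination, 16.1 ± 5.52 with the hybrid, 191 ± 49.8 with glucagon and 354 ± 188 in control. The combination and hybrid held the lowest and second lowest mean in every gene except Cyp4a12b, where T3 fell between them.

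Adding T3 to glucagon was read by setting the combination against glucagon alone, 2 groups that hold no control library and none of lane 5. Of the 8 genes 5 were lower, Cyp4a12a, Cyp4a12b, Elovl3, Keg1 and Mup20 (10.2% of all tested genes were called lower). Cyp4a12a had a log2 change of -7.47 ± 1.16, Cyp4a12b of -6.83 ± 1.39 and Elovl3 of -4.26 ± 0.33 (SE, edgeR adjusted p at most 1.31e-05). Keg1 had a log2 change of -2.79 ± 0.31 and Mup20 of -3.70 ± 0.70 (adjusted p at most 0.00138). Hsd3b5 also did not overlap between the groups, at -3.01 ± 1.11, and was not called (adjusted p = 0.0632), although DESeq2 called it (adjusted p = 0.0385), as did edgeR without combination replicate 1 or control replicate 1, 2 or 4 (adjusted p 0.0285 to 0.048). Mup21 had -1.67 ± 0.66 (adjusted p = 0.0794), which was called without control replicate 1 (adjusted p = 0.012) or 2 (adjusted p = 0.0318), and Slco1a1 -1.88 ± 1.02 (adjusted p = 0.220). The main fit takes its spread from all groups, control included. With only the 2 groups compared in the edgeR fit, Hsd3b5 (adjusted p = 0.00734) and Mup21 (adjusted p = 0.00822) were called. The libraries of 6 of the 8 did not overlap (15.7% of all tested genes were lower without overlap). Within each of the 4 lanes the combination library lay below the glucagon library for all 8 genes. That lane count uses the same libraries again, and no share over all tested genes was computed for it. With the hybrid in place of the combination, 6 of the 8 were called lower against glucagon (11.7% of all tested genes), the same 5 and Hsd3b5 at -3.65 ± 1.17 (adjusted p = 0.0302), a call lost with the replicate block (adjusted p = 0.0581) and without hybrid replicate 1, 2 or 3 or glucagon replicate 1 (adjusted p 0.0755 to 0.0835). Mup21 had -1.78 ± 0.66 against glucagon (adjusted p = 0.0581) and was called without glucagon replicate 3 or control replicate 1 or 2 (adjusted p 0.00784 to 0.0371). Slco1a1 had -2.61 ± 1.02 and was not called (adjusted p = 0.0854). With only the hybrid and glucagon groups in the edgeR fit, Mup21 (adjusted p = 0.00796) and Slco1a1 (adjusted p = 0.0163) were called. The libraries of 7 of the 8 did not overlap (15.6% of all tested genes).

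Adding glucagon to T3 was read by setting the combination against T3, with lane and treatment not separable. Elovl3 was the 1 gene called, with a log2 change of -1.42 ± 0.34 (SE, edgeR adjusted p = 0.0438), and 0.256% of all tested genes were called lower. Its libraries did not overlap, at 14.3 to 21.3 CPM in the combination and 36.4 to 58.5 CPM with T3. The call was lost on leaving out any of 13 of the 20 libraries, each of the 8 compared among them, where the change stayed between -1.54 and -1.32. Mup21 was the other gene without overlap (log2 change -1.80 ± 0.67, adjusted p = 0.241), and 5.13% of all tested genes were lower without overlap. Against T3 the hybrid was lower for Elovl3, at -1.86 ± 0.34 (adjusted p = 0.00304), and for Keg1, at -1.37 ± 0.32 (adjusted p = 0.0145), while 2.67% of all tested genes were called lower. Both were lower without overlap, as was Mup21 (8.87% of all tested genes). Mup21 had -1.91 ± 0.67 (adjusted p = 0.0983) and was called without control replicate 1 (adjusted p = 0.0156) or 2 (adjusted p = 0.0428), and the combination against T3 called it without control replicate 1 (adjusted p = 0.0489). Keg1 missed the threshold without T3 replicate 2, hybrid replicate 1 or hybrid replicate 2.

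A single test asked whether, on the log2 scale, the combination departed from T3 alone and glucagon alone added up. Elovl3 departed from additivity, at -2.81 ± 0.47 (SE, edgeR adjusted p = 0.00137), and no other of the 8 genes did (2.14% of all tested genes departed downward). Its T3 effect was -1.45 against control and -4.26 on top of glucagon. Keg1 had a departure of 0.31 (95% interval -0.61 to 1.23, adjusted p = 0.767) and Mup20 of -0.77 (-2.84 to 1.29, adjusted p = 0.738). For Cyp4a12a and Cyp4a12b the intervals span more than 3 log2 units on either side of 0, so the counts there cannot show a departure. Mup21 gave -1.43 (adjusted p = 0.456), and -2.95 without control replicate 1 (adjusted p = 0.0191).

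The hybrid molecule and the 2 hormones given together were compared without stated doses. None of the 8 genes was called between the hybrid and the combination by edgeR or by DESeq2, 1 of the 8 had an unadjusted p under 0.05, and 0.031% of all tested genes were called. That gene was Keg1, with a log2 change of -0.79 ± 0.32 (95% interval -1.45 to -0.13, adjusted p = 0.667), and the hybrid library was the lower in 4 of 4 lanes. Elovl3 had -0.44 (interval -1.16 to 0.27), Mup20 0.44 (-1.07 to 1.95) and Mup21 -0.10 (-1.53 to 1.32). The intervals of Hsd3b5 (-3.29 to 2.00), Slco1a1 (-2.88 to 1.42), Cyp4a12a (-2.10 to 3.70) and Cyp4a12b (-2.20 to 4.48) leave room for differences of several fold in either direction. A p that misses the threshold does not show that the hybrid and the combination act alike.

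**Figure D3:**
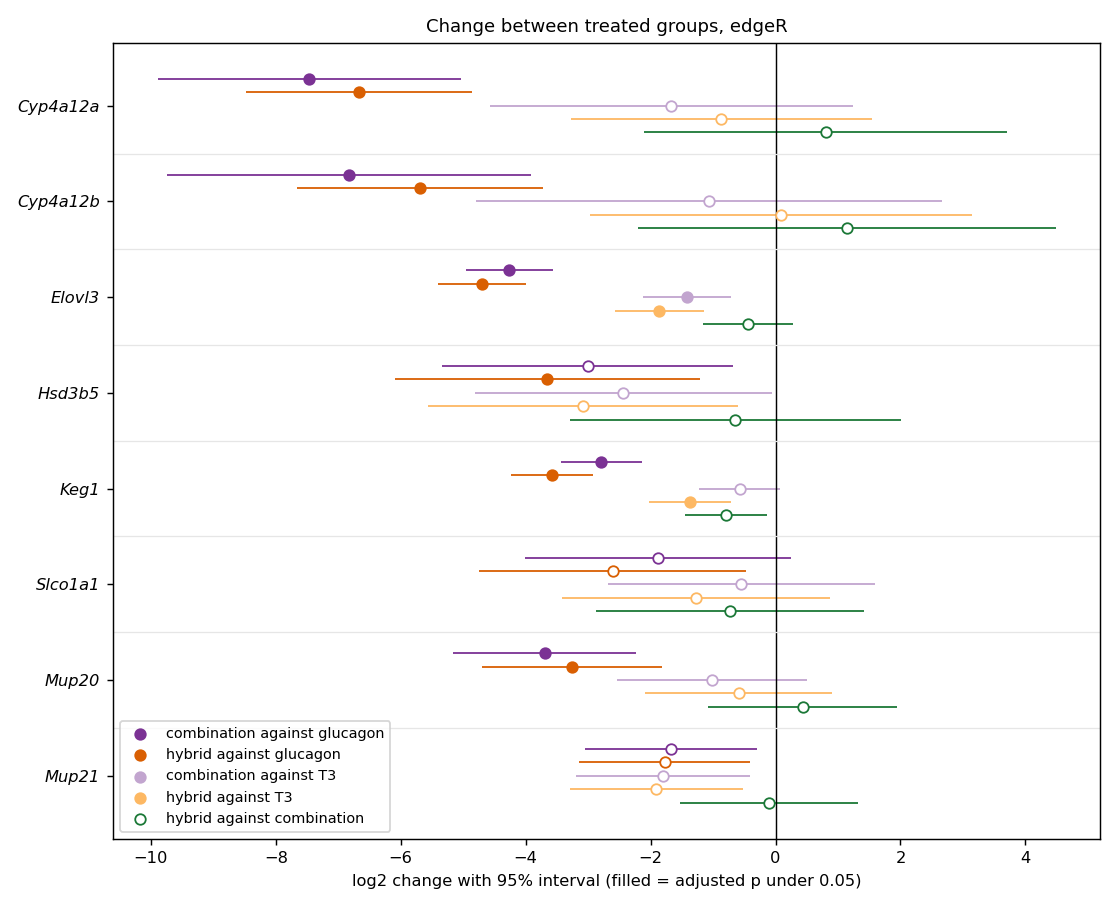
Log2 change between treated groups for the 8 genes with 95% intervals from the edgeR fit; filled points passed an adjusted p of 0.05. Against glucagon the combination and hybrid points lie left of 0 for all 8 genes, and the hybrid points against the combination are open for all 8, with Keg1 at -0.79.

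Pooled over the 20 libraries, deviations of the 8 genes from their group means went together, though not for every pair in every group. After removal of group means, Pearson's r over the 20 libraries was positive for 28 of 28 gene pairs, with a median of 0.562, a low of 0.3 (Cyp4a12b with Elovl3) and a high of 0.902 (Hsd3b5 with Slco1a1). These points share the library, its depth and its normalisation, and the Cyp4a12 values at a few reads carry little information. Libraries far from their group mean, such as the controls for Hsd3b5, weigh most in r. No share over other gene pairs was computed. In glucagon replicate 4 the log2 deviation was 0.542 for Elovl3 and -0.479 for Keg1. T3 replicate 1 was the lowest T3 library for 6 of the 8 genes, hybrid replicate 1 the lowest hybrid library for 6, and hybrid replicate 4, with 542 summed CPM of the muscle genes, the highest hybrid library for 7. Glucagon replicate 3, the library with the high muscle genes, was the lowest glucagon library for 6.

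Cux2, the repressor of male genes that is normally a marker of female liver, was set beside the 8 genes inside the groups given T3, after the values of both had been seen and with no test. Its level was 100.6, 5.24, 17.0 and 32.0 CPM in T3 livers, 5.09, 48.4, 115 and 12.9 in combination livers, 74.6, 25.0, 30.0 and 4.01 in hybrid livers, 1.19, 0.647, 1.94 and 1.11 in glucagon livers, and 0.535, 0.483, 0.588 and 0.226 in control livers. Every library given T3 lay above every glucagon and control library. Ordered by Cux2, the 4 libraries of a group stood in exactly the opposite order by Slco1a1 in 3 of 3 groups, by Mup20 in 2, by Cyp4a12a, Keg1 and Hsd3b5 in 1 each, and by Cyp4a12b, Elovl3 and Mup21 in 0. Cux2 was the 1 gene of 12907 tested (0.00775%) in exactly opposite order to Slco1a1 in all 3 groups. In exactly the same order as Slco1a1 in all 3 stood 2 genes. Slco1a1, the reference for these counts, was the gene of the 8 with the most groups in opposite order. With 4 libraries a group, a few of 12907 genes can match in either order by chance. These counts are therefore not evidence of a link between Cux2 and Slco1a1. T3 replicate 1, combination replicate 3 and hybrid replicate 1 had the most Cux2 of their groups, and held 4.54, 2.47 and 1.96 CPM of Slco1a1. T3 replicate 2, combination replicate 1 and hybrid replicate 4 had the least Cux2, and held 104, 105 and 62.0 CPM of Slco1a1. The opposite order did not hold in control livers, where Slco1a1 ranged 18.2-fold and Cux2 lay at 0.226 to 0.588 CPM. There replicates 1 and 3 had the most Cux2 and also the most Slco1a1, at 614 and 253 CPM. In glucagon livers replicate 3 had the most Cux2 and the least Slco1a1, but the full order was not the opposite. The library highest in Cux2 was also the lowest of its group for Hsd3b5 and Mup20 in 3 of 3 groups, for Cyp4a12a, Keg1 and Mup21 in 2, for Elovl3 in 1 and for Cyp4a12b in 0. No share over all genes was computed for these last counts. The deviations of the 8 genes were correlated over the 20 libraries, so their counts are not separate evidence.

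**Figure D4:**
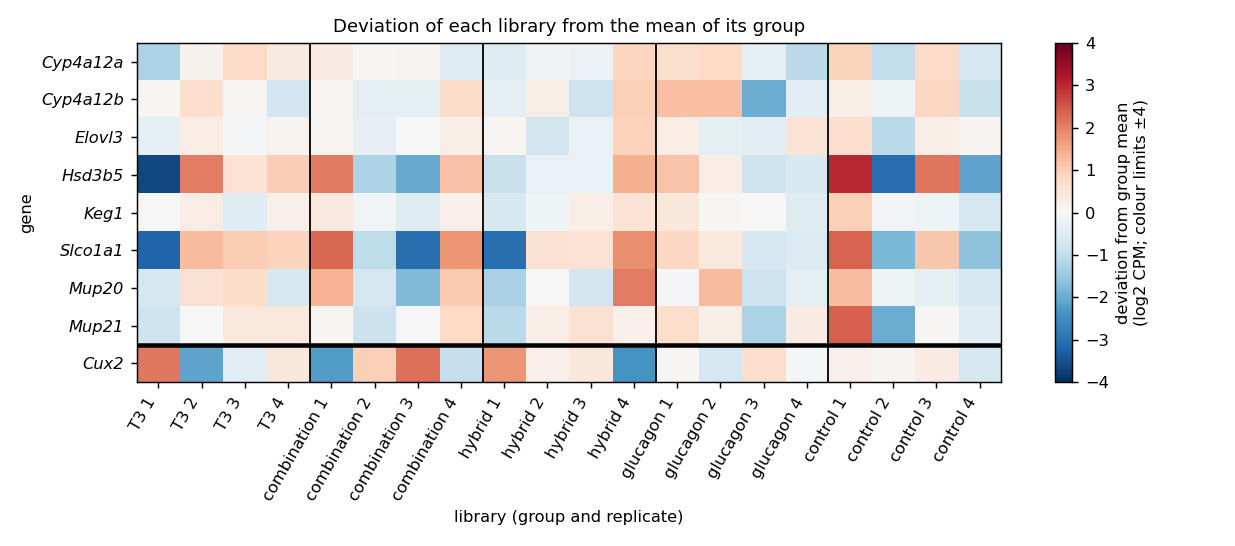
Deviation of each of the 20 libraries (columns) from the mean log2 CPM of its group, for the 8 genes and, below the thick line, Cux2 (rows); red is above and blue below the group mean. Hsd3b5, Slco1a1 and Mup20 are blue in the T3, combination and hybrid libraries where Cux2 is reddest, T3 replicate 1, combination replicate 3 and hybrid replicate 1.

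The growth hormone pathway above these genes moved in several places. Of 11 signalling genes tested, 1 was lower and 4 higher with T3, 1 lower and 4 higher with the combination, 1 lower and 3 higher with the hybrid, and 1 lower and 2 higher with glucagon. Of all tested genes 7.31% were called higher with T3, 9.23% with the combination, 11.2% with the hybrid and 9.23% with glucagon. Called lower were 10.6%, 10.9%, 13.2% and 11.9%, in that order. Ghr, the growth hormone receptor, averaged 478 ± 116 CPM in T3 livers, 526.8 ± 59.0 in combination livers, 428 ± 36.2 in hybrid livers, 1380 ± 147 in glucagon livers and 1502 ± 743 in control livers (SD, n = 4 each). It fell by 1.65 ± 0.25 with T3, by 1.51 ± 0.25 with the combination and by 1.81 ± 0.25 with the hybrid on the log2 scale (SE, edgeR adjusted p at most 0.000355), and glucagon gave -0.12 (adjusted p = 0.766). Stat5a, which encodes a signal carrier closely related to STAT5b, averaged 57.6 ± 6.22 CPM in T3 livers, 45.7 ± 4.06 in combination livers, 43.2 ± 3.09 in hybrid livers, 3.71 ± 1.01 in glucagon livers and 10.4 ± 1.75 in control livers. It rose by 2.47 with T3, by 2.13 with the combination and by 2.05 with the hybrid, and fell by 1.48 with glucagon (edgeR adjusted p at most 3.63e-06). Stat5b, the main carrier of the growth hormone pulse in male liver, rose by 1.16 with T3, by 0.99 with the combination and by 0.55 with the hybrid (adjusted p at most 0.0214), and glucagon gave 0.24 (adjusted p = 0.334). Stat3, which carries cytokine signals, rose by 0.78 with T3 (adjusted p = 0.0334) and by 1.13 with glucagon (adjusted p = 0.00261). Igf1, the classical growth hormone target in liver and named here after its values were seen, was not called in any of the 4 comparisons, with log2 changes between 0.11 and 0.42.

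Of 7 transcriptional regulators tied to sex-biased liver expression, 2 were higher with T3, 4 higher and 1 lower with the combination, 2 higher and 1 lower with the hybrid, and 1 lower with glucagon. Among all tested genes 7.31% were called higher with T3, 9.23% with the combination, 11.2% with the hybrid and 9.23% with glucagon. Called lower were 10.6%, 10.9%, 13.2% and 11.9%, in that order. A single lower call among 7 genes lies close to these shares. Cux2 rose by 6.37 ± 1.20 with T3, by 6.59 ± 1.19 with the combination and by 6.16 ± 1.20 with the hybrid on the log2 scale (SE, edgeR adjusted p at most 0.000932). The glucagon value of Cux2 was 1.39 ± 1.32 (adjusted p = 0.471), with every glucagon library above every control library. Trim24, a bromodomain cofactor, rose by 1.34 with T3, by 1.21 with the combination and by 0.96 with the hybrid (adjusted p at most 0.000858). Bcl6, a repressor more abundant in male liver, fell by 1.37 with the combination (adjusted p = 0.0174), by 1.98 with the hybrid (adjusted p = 0.00122) and by 1.23 with glucagon (adjusted p = 0.0298), and T3 gave -0.28 (adjusted p = 0.653). Onecut1, a liver factor that binds ATTGAT cores, rose by 2.52 with the combination (adjusted p = 0.00856). The Kupffer cell and macrophage markers, which mark another cell type of the tissue, summed to 1452 to 1829 CPM with T3, 1074 to 1292 with the combination, 1060 to 1497 with the hybrid, 487 to 600.6 with glucagon and 646.7 to 1141 in control, with 12 of 12 above 0 in every library. Of these 12, 7 were higher with T3, 4 with the combination and 5 with the hybrid, and 8 were lower with glucagon. The shares of all tested genes given above apply to these counts as well. The part of these markers in the changes of Stat5a and the other genes was not tested.

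**Figure D5:**
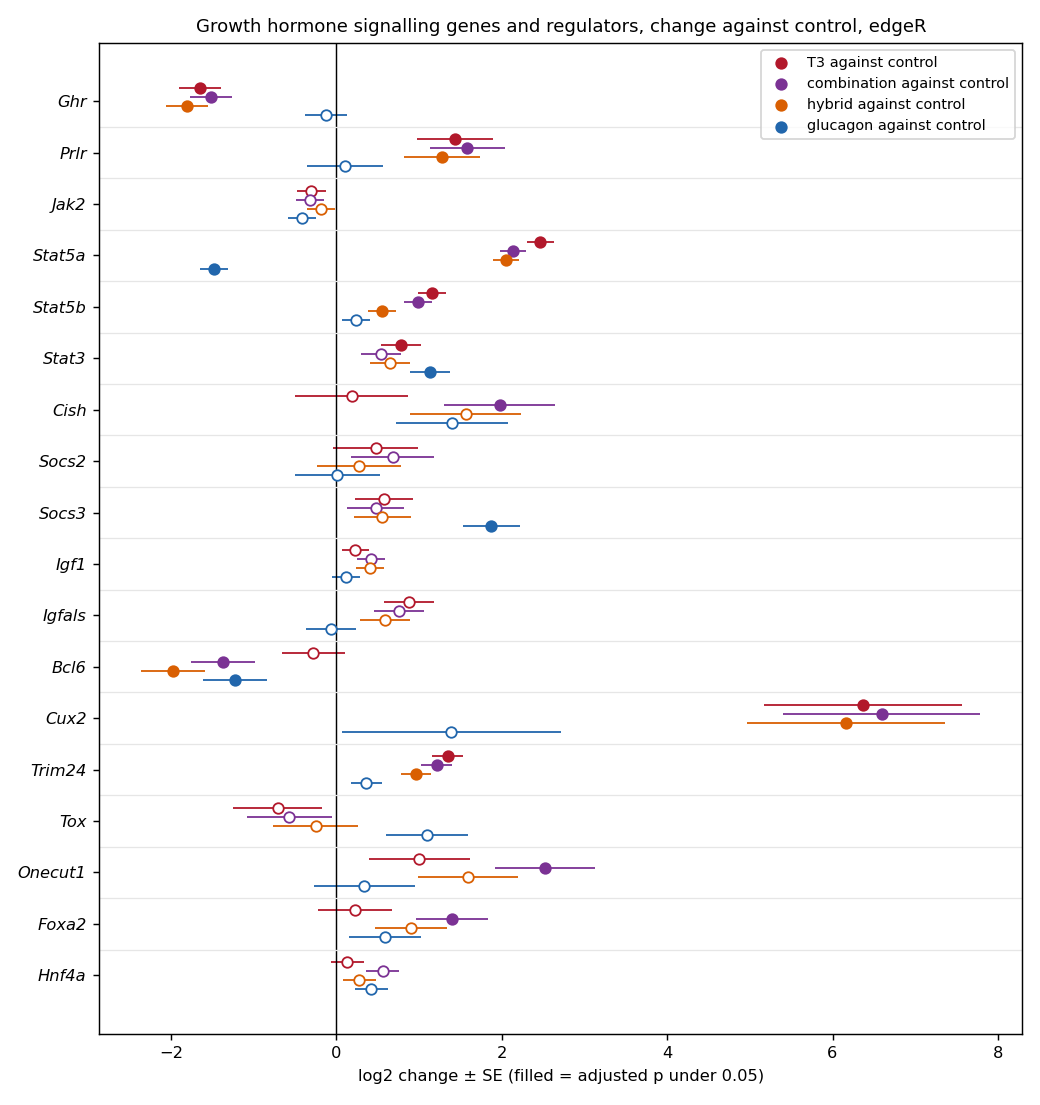
Log2 change against control, with SE bars, of 11 growth hormone signalling genes (upper rows, Ghr to Igfals) and 7 regulators (lower rows, Bcl6 to Hnf4a) for the 4 treatments; filled points passed an adjusted p of 0.05 in edgeR. Ghr lies left of 0 with T3, combination and hybrid, Cux2 lies beyond 6 with the same 3, and Stat5a lies at 2.47 with T3 and at -1.48 with glucagon.

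Of 16 other Mup genes in the list 7 were in the files, which hold only genes that reach 20 counts in some library. Against control 0 of the 7 were called lower in any group, while 4 were called higher with T3, 3 with the combination, 4 with the hybrid and 0 with glucagon (edgeR; 0 at an unadjusted p under 0.05 with glucagon). Those called higher with T3 were near 0 in control and could be listed only through libraries where they were high, so these counts support no direction for the family. Mup9 averaged 11.8 ± 5.66 CPM in T3 livers, 8.25 ± 3.08 in combination livers, 4.11 ± 2.57 in hybrid livers, 0.0609 ± 0.0844 in glucagon livers and 0.266 ± 0.413 in control livers (SD, n = 4 each), and rose with T3 (adjusted p = 0.000103). Mup1, Mup8 and Mup13 were also higher with T3, at group means of 2.42, 2.49 and 1.87 CPM, against 0.473, 0.0723 and 0.155 CPM in control. Mup3, which is closest to Mup21 in sequence and is named for that, averaged 519 ± 119 CPM in T3 livers, 627.6 ± 136 in combination livers, 624.6 ± 132 in hybrid livers, 1702 ± 65.7 in glucagon livers and 1210 ± 1427 in control livers, and was not called against control. Against glucagon Mup3 was called lower with the combination (log2 change -1.44 ± 0.49, SE, adjusted p = 0.0449) and with the hybrid (-1.45 ± 0.49, adjusted p = 0.0404), as Mup20 was, without overlap of libraries. The 7 genes summed to 431.7 to 720.4 CPM in T3 livers, 556.3 to 854.1 in combination livers, 488.7 to 829.2 in hybrid livers, 1635 to 1769 in glucagon livers and 194.5 to 3353 in control livers, so the controls spanned every other group. The highest control library of Mup3 was replicate 1 at 3324 CPM and its lowest replicate 2 at 194 CPM, the same 2 libraries that held the extremes of Mup21.

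Of 14 further genes that male liver is known to express above female liver, 5 were lower with T3, 5 with the combination and 7 with the hybrid, and none was higher with these treatments. With glucagon 0 were lower by edgeR, 3 had an unadjusted p under 0.05 in either direction, and 1, Gstp2, was higher. The shares of all tested genes called lower were 10.6% with T3, 10.9% with the combination, 13.2% with the hybrid and 11.9% with glucagon. With glucagon 9.23% of all tested genes were called higher. Cyp2d9, a cytochrome P450 of male liver, averaged 81.8 ± 53.2 CPM in T3 livers, 69.9 ± 51.0 in combination livers, 61.4 ± 66.3 in hybrid livers, 839 ± 152 in glucagon livers and 622 ± 253 in control livers (SD, n = 4 each). It fell by 2.93 with T3, by 3.15 with the combination and by 3.35 with the hybrid on the log2 scale (adjusted p at most 0.00479). Gstp1 (glutathione conjugation), Cyp2u1 (fatty acid hydroxylation) and Ugt2b1 (glucuronidation) fell with all 3 as well, by 1.26 to 2.32. The median log2 change of the 14 was -1.01 with T3, -1.003 with the combination, -1.50 with the hybrid and 0.08 with glucagon.

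Of 24 genes that female liver is known to favour, 17 were tested, and 8 were higher and 1 lower with T3, 7 higher and 1 lower with the combination, 8 higher and 2 lower with the hybrid, and 3 higher and 2 lower with glucagon. Of all tested genes 7.31% were called higher with T3, 9.23% with the combination, 11.2% with the hybrid and 9.23% with glucagon. Called lower were 10.6%, 10.9%, 13.2% and 11.9%, in that order. Genes are listed only if they reach 20 counts in some library. A gene near 0 in control, as A1bg was at 0.125 CPM, could be listed only through libraries where it was high. The numbers called higher therefore support no direction for the list. Cyp17a1, a steroid hydroxylase, rose by 3.72 with T3, by 4.26 with the combination and by 4.05 with the hybrid (edgeR adjusted p at most 1.25e-06). Cyp3a44, a further cytochrome P450, rose by 4.44 with T3, by 5.47 with the combination and by 5.35 with the hybrid (adjusted p at most 0.00115). Ntrk2, a neurotrophin receptor, rose by 2.07 with T3 and by 1.81 with glucagon, and Ppp1r3g, a glycogen-targeting phosphatase subunit, fell by 2.78 with T3 and rose by 4.35 with glucagon (adjusted p at most 0.00113).

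To find the genes most like the 8 in pattern, z scores of log2 CPM over the 20 libraries were averaged over the 8. With that profile 8831 genes outside the set were ranked by Pearson's r, with no test. Ranked genes had a mean of at least 5 CPM. Other Mup genes and predicted genes (Gm and Rik names) were left out of the ranking. The 6 highest were Nox4 (0.969), Abca8a (0.954), Il1rap (0.951), Mcm10 (0.936), Cyp2d9 (0.929) and Atp8b1 (0.929). Nox4, which encodes an NADPH oxidase, averaged 11.3 ± 4.76 CPM in T3 livers, 6.50 ± 2.94 in combination livers, 6.44 ± 2.46 in hybrid livers, 60.3 ± 11.0 in glucagon livers and 94.4 ± 67.1 in control livers (SD, n = 4 each). The 4 with the most opposite pattern were Nt5e (-0.943), Slc16a5 (-0.940), Fam84b (-0.930) and A1bg (-0.929). Nt5e, an ectonucleotidase, averaged 57.9 ± 23.2 CPM in T3 livers, 74.7 ± 27.4 in combination livers, 76.7 ± 34.3 in hybrid livers, 7.62 ± 2.65 in glucagon livers and 8.94 ± 3.18 in control livers. Each of the 8 correlated with the mean profile of the other 7 at an r between 0.64 for Mup21 and 0.933 for Mup20, over libraries that share the 5 group means.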

How the data were processed

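The deposited values were raw counts per gene symbol in 20 liver libraries. The submitters' processing notes name HTSeq, without a version, and the build mm10; no aligner, annotation or strand setting is given in the sources used here. Every symbol listed has 20 or more counts in some library. Genes were kept by filterByExpr (minimum count 10, total 15), which left 12907 of 13319, and were scaled by TMM. edgeR 4.0.16 in R 4.3.3 gave quasi-likelihood tests on all 20 libraries with a mean for each group (residual degrees of freedom 15, prior 5), adjusted by Benjamini-Hochberg within a comparison, threshold 0.05. SE are Wald errors of that fit. Log2 CPM used a prior count of 2. DESeq2 1.42.0 was an alternative, beside RLE size factors, no filter, fits of only the groups compared, a replicate block, and libraries left out.

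On data simulated for T3 against control over 12907 genes, 52 of 100 genes changed by 1 on the log2 scale and 92 of 100 changed by 2 were recovered, with 9 unchanged genes among 153 calls. The simulation gave each gene the same spread in every group, while the data varied by 43.16% in control and 19.25% with T3. It therefore cannot show how often unchanged genes are called under unequal spread. Replicate numbers mark the lane in 4 groups, per the labels. Same-numbered libraries correlated between -0.318 and 0.462 after removal of group means, above 0.1 in 10 of 24 pairs. The 8 genes and the lists were chosen with earlier results of these data known. All 8 are named; from each list the text names up to 4 genes called against control, those of smallest p with T3.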

Additional observations from a re-analysis of the deposited data

Results flagged for a closer look

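Slco1a1 in the T3 group had 1 library far from the others. T3 replicate 1 held 4.54 CPM, and the other 3 held 82.0 to 104 CPM. On the log2 scale its gap to the nearest library was 0.924 of the range of the group, above Dixon's 95% critical value for 4 libraries. This was 1 of 40 sets of 4 libraries examined, and chance alone flags about 1 in 20. The T3 against control value of Slco1a1 was not called in any of 26 alternative fits (log2 change -2.13 to -0.63, lowest adjusted p = 0.154). Without T3 replicate 1 the hybrid against control value of Slco1a1 was called (adjusted p = 0.0392, edgeR). That comparison holds no T3 library, and its log2 change stayed at -3.04.

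Elovl3 was marked because the T3 effect differed with and without glucagon. The departure from the sum of the 2 effects was -2.81 on the log2 scale (edgeR adjusted p = 0.00137), with a T3 effect of -4.26 in the presence of glucagon and of -1.45 in its absence.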

How the results depend on the processing

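The number of the 8 genes called stayed within 1.5 times under each of the alternatives, except as follows. With only the groups compared in the fit, it was 1 for glucagon against control (3 with all libraries), 2 for the combination against T3 (1) and 4 for the hybrid against T3 (2). On leaving out 1 library it ran from 0 to 2 for the combination against T3, from 1 to 3 for the hybrid against T3 and from 1 to 2 for the departure from the sum. The replicate block changed the call of Mup21 with the combination and the hybrid, of Keg1 with glucagon and of Hsd3b5 in the hybrid against glucagon, as given above. The same block over the 16 libraries of lanes 1 to 4 called Hsd3b5 in the combination against glucagon (adjusted p = 0.0486). It kept the hybrid against glucagon call of Hsd3b5, and no other call of the 8 genes changed under either block.

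Of 2122 recomputed changes 42 turned direction, none of them called in either fit. For Mup21 the T3 value was 0.14 with the replicate block and ran from -0.61 to 1.26 over left-out libraries, the glucagon value was 0.0103 with the lane block (-0.74 to 1.13), and the hybrid against combination value was 0.0472 with the replicate block and 0.0992 with the lane block (-0.32 to 0.22). Over left-out libraries glucagon against control ran from -0.86 to 0.37 for Mup20 and from -0.79 to 0.71 for Slco1a1, each turning without control replicate 1. Hybrid against combination ran from -1.39 to 0.43 for Hsd3b5, from -1.41 to 0.046 for Slco1a1 and from -0.75 to 0.99 for Mup20, and hybrid against T3 from -0.60 to 0.62 for Cyp4a12b. The departure was -0.12 by DESeq2 and -0.0569 with the replicate block for Cyp4a12a (-0.41 to 0.50), -0.0777 for Cyp4a12b (-0.82 to 0.72) and 0.0375 for Slco1a1 (-1.27 to 0.27) without control replicate 2 and glucagon replicate 3. It ran from -1.51 to 0.29 for Hsd3b5 and from -0.14 to 0.50 for Keg1. The cause was not tested.

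Over all genes, the fit of only the groups compared called 503 with T3 (2317 with all libraries), 918 with the combination (2598), 1208 with the hybrid (3144) and 976 with glucagon (2732), 523 for the combination against T3 (179; DESeq2 336), 16 for the hybrid against the combination (4; DESeq2 28; 16 also without control replicate 2 and glucagon replicate 3) and 1562 for the hybrid against T3 (821). Depth limits Cyp4a12a and Cyp4a12b, which rest on 3 to 8 reads a group wherever T3 was given.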
